A study of Mus musculus with 20 samples.

Results

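The genes described here are 10 mRNAs that were recovered with iron regulatory protein 2 (IRP2) in several mouse tissues and that have no textbook role in iron metabolism: Nt5c, Hmces, Fam98b, Utp25, Dhx9, Taf10, Bap1, Aagab, Ap1m1 and Ubxn1. They were picked by name because their signal in the IRP2 reaction exceeded that of the control reaction in these same arrays, so that difference describes the choice and is not tested below. All probe sets whose single gene symbol in the platform annotation was one of these names were taken. This gave 18 probe sets for the 10 genes, among 18193 genes with such a probe set on the array. Of the 18, 16 passed a filter on dim signals (at or above the median of its array on at least 2 of 20 arrays), and 30153 of 45101 probe sets on the array did so.

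Total RNA of C57BL6/J mice was mixed with purified bacterial (E. coli) IRP2 that carried a His tag, an anti-His antibody pulled the protein down, and the RNA that came with it was amplified before hybridisation to the Affymetrix Mouse Genome 430 2.0 array. The control reaction, run in parallel, contained the antibody but no IRP2. Each of 5 tissues had 2 IRP2 arrays and 2 control arrays, numbered as replicas 1 and 2, which makes 10 groups and 10 pairs. Duodenum, liver and spleen came from 4 mice each, fed from weaning for 21 days on a diet with under 10 mg iron per kg; bone marrow and brain came from 6 mice each, aged 8 to 10 weeks, whose diet was iron-normal. Both sexes were mixed and the RNA of a tissue was pooled before the reactions, so the spread between replicas may be technical and does not cover differences between mice. Because purified protein met extracted RNA, the assay reports binding in the tube. Diet and age cannot be told apart from tissue between the sets of 3 and 2 tissues.

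IRP2 is an RNA-binding protein that, when iron is scarce, holds on to iron-responsive elements (IREs). An IRE is a short hairpin in the untranslated part of an mRNA, with an apical loop and an unpaired C on the 5′ side of the stem. Binding before the coding region blocks translation, as in the ferritin mRNAs, and binding after it protects the mRNA from decay, as in the mRNA of the transferrin receptor. The 10 genes are known from other processes: nucleotide turnover and DNA protection (Nt5c, Hmces), RNA processing (Fam98b, Utp25, Dhx9), transcription and chromatin (Taf10, Bap1), and vesicle traffic and protein turnover (Aagab, Ap1m1, Ubxn1).

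To see whether the bases around the annotated start of these mRNAs hold the core of an IRE, the sense strand of RefSeq windows (GRCm38.p6, 250 bases before to 50 bases after each start) was searched for a C, any 5 bases, the loop CAGTGN and any 5 bases. RefSeq windows were at hand for 9 of the 10 genes, 11 windows in all. A single window held the motif, that of Aagab, at chr9:63602636-63602652 on the plus strand. It is shown because it is the only match among the members, with the 6 loop bases in capitals:
Aagab: ccgctgCAGTGGtacgg
The match begins 10 bases before the start used for the window, but inside the extent that RefSeq gives the gene. Of the 5 base pairs that the flanking bases could form around the loop, 3 are Watson-Crick or G-U pairs. The positions that do not pair lie side by side within the stem (g opposite g, c opposite c), and the pair next to the loop is G-U. The motif occurs in 10.3% of all 32851 windows, and in 2.93% with at least 3 such pairs. The 6 windows of 4 textbook IRE mRNAs held no match either. A missing match says only that the letters are not in these windows, which leave out most of the untranslated regions.

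Several features of the arrays bear on the values. The bone marrow control array of replica 1 stood closer to spleen than its fellows: its mean Spearman correlation with the spleen arrays was 0.908, while theirs was 0.824 to 0.825. The median level of the myeloid markers above the array median was 5.91 on that array and 4.12 on the other control. Between the replica pairs of bone marrow the log2 ratios had a correlation of 0.0178 over probe sets, where the other tissues had 0.187 to 0.364, and those of the first pair had a standard deviation of 0.568 against 0.214 to 0.312 for the other 9 pairs. Replicas of brain were far apart (Spearman correlation 0.901 and 0.909 between replicas of one reaction). In the control arrays of liver, spleen and bone marrow, all measured markers of liver (7 of 7), spleen B and T cells (7 of 7) and bone marrow myeloid cells (8 of 8) lay above the array median, as did 5 of 7 for duodenal epithelium and 6 of 7 for brain. All 6 measured markers of pancreatic acinar cells were also above the median in duodenum and in spleen.

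Levels below are log2 probe set values, and a ratio is the log2 level with IRP2 minus the log2 level in the control. For each gene the probe set with the highest mean ratio is described first, except for Dhx9, where that probe set is dim and follows the brightest. On these 10 probe sets IRP2 exceeded the control in all 10 pairs, a pattern shown by 0.869% of the probe sets tested. The mean over the 5 tissues ran from 0.81 for Ap1m1 to 1.95 for Nt5c, with a median of 1.09, while the median over all probe sets tested was -0.02. For comparison, on brightest probe sets the 6 measured textbook IRE mRNAs had a median of 1.14 and the 10 genes 1.06. On their probe sets with the highest mean ratio, the IRE mRNAs had 3.30 (Tfrc), 1.61 (Slc40a1), 1.52 (Alas2), 1.45 (Slc11a2), 1.13 (Fth1) and 0.77 (Epas1).

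**Figure D1:**
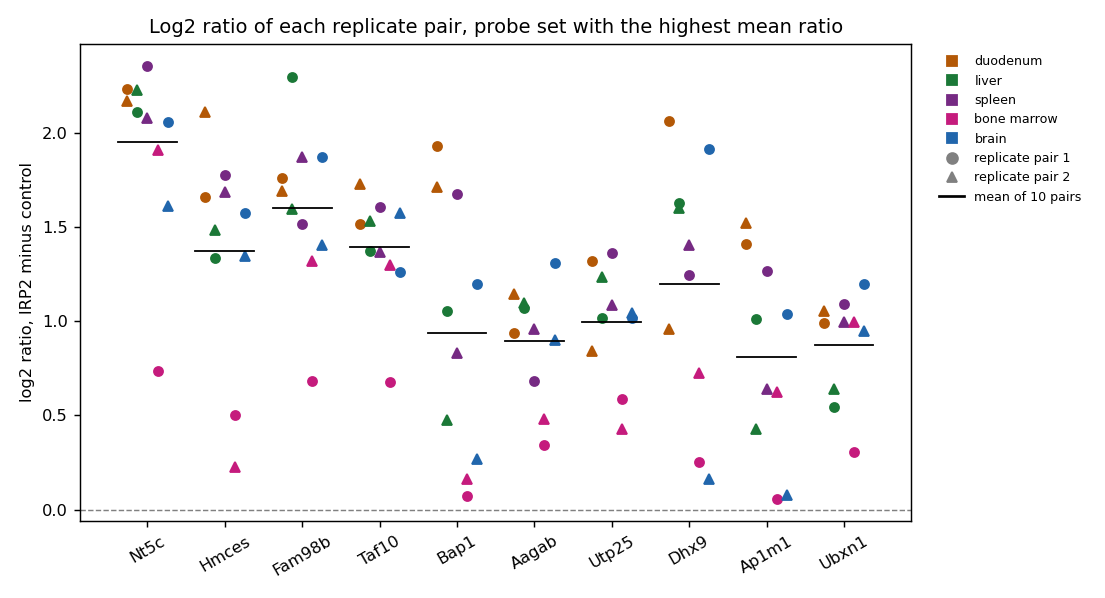
The vertical axis gives the log2 ratio of IRP2 to control for each of the 10 genes; colours are tissues, circles and triangles are replica pairs 1 and 2, and the black line is the mean of 10 pairs. All 100 points lie above 0, and the bone marrow points are mostly the lowest of their gene.

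Nt5c encodes a cytosolic nucleotidase that removes phosphate from nucleoside monophosphates. In duodenum its IRP2 arrays read 11.45 and 11.60 and its controls 9.22 and 9.44. Liver gave 10.29 and 10.21 with IRP2 against 8.18 and 7.99, and spleen 11.50 and 11.43 against 9.14 and 9.35. These 3 tissues had nearly the same shift, although the control level of liver was lower. Bone marrow gave 8.82 and 8.84 against 8.09 and 6.93, and brain 10.15 and 9.47 against 8.09 and 7.86. No IRP2 array overlapped a control array of its tissue. The bone marrow controls differed from each other by more than the pairs of any other tissue did, which set the pair ratios there at 0.74 and 1.91. Averaged over tissues the ratio was 1.95 ± 0.14 (SE, n = 10 arrays per reaction), or 3.86-fold, and the probe set ranked 7 of 30153 by size. Each SE given here is of a fit that ignores replica number, and reflects the spread between arrays of one group and not between tissues. With replica number in the fit the SE for Nt5c was 0.10. Nt5c had the highest ratio of the 10 genes in 9 of the 10 pairs, and Fam98b in the remaining liver pair.

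Hmces encodes a protein that shields abasic sites in single-stranded DNA by binding them covalently. The IRP2 and control arrays read 8.39 and 9.03 against 6.73 and 6.92 in duodenum. They were 8.33 and 8.27 against 6.99 and 6.78 in liver, and 9.72 and 9.66 against 7.94 and 7.97 in spleen. Spleen thus had the highest levels in both reactions. Bone marrow gave 8.02 and 7.78 against 7.52 and 7.56, and brain 8.75 and 8.78 against 7.17 and 7.43. The arrays did not overlap in any tissue, yet the gap in bone marrow was small. The mean ratio was 1.37 ± 0.10 (SE, n = 10 per reaction). Duodenum had 1.89, spleen 1.73, brain 1.46, liver 1.41 and bone marrow 0.36, each ± 0.22 (SE, n = 2 per reaction). Bone marrow thus stood apart by more than 1 log2 unit. Both bone marrow pairs were low, at 0.50 and 0.23, so the value was as low without the control array of replica 1 (0.35).

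Fam98b belongs to the tRNA ligase complex, which joins the exons of spliced tRNAs. Its signal with IRP2 was 11.29 and 11.30 in duodenum against 9.53 and 9.60 in the control, 11.38 and 10.68 against 9.09 and 9.09 in liver, and 11.51 and 11.90 against 10.00 and 10.02 in spleen. In these tissues every IRP2 array stood more than 1 log2 unit above its controls. Bone marrow gave 10.01 and 9.43 against 9.33 and 8.11, and brain 12.29 and 11.11 against 10.41 and 9.71. Replica 1 was higher than replica 2 in both reactions there, but the reactions did not overlap. The mean ratio was 1.60 ± 0.18 (SE, n = 10 per reaction), a fold of 3.03. Liver stood highest at 1.95 and bone marrow lowest at 1.00. The bone marrow value was 1.61 without the control of replica 1 and 0.39 without that of replica 2.

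Utp25 is a nucleolar protein of the small subunit processome, the assembly that makes the small ribosomal subunit. On probe set 1452099_at duodenum gave 8.96 and 8.49 with IRP2 against 7.64 and 7.65, liver 9.39 and 9.48 against 8.37 and 8.24, and spleen 10.03 and 9.83 against 8.67 and 8.75. Bone marrow gave 8.64 and 8.40 against 8.05 and 7.97, and brain 9.15 and 8.82 against 8.14 and 7.77. The arrays never overlapped, and the 10 pairs ran from 0.43 to 1.36 with a median of 1.03. The mean was 0.99 ± 0.10 (SE, n = 10 per reaction), a fold of 1.99. Its other probe sets did not share this: 1458448_at had a mean of 0.20 ± 0.10 at a control level of 5.73, and 1458995_at had 0.02 at 4.11 and was too dim for the test.

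Dhx9, or RNA helicase A, unwinds RNA and DNA duplexes. Its brightest probe set, 1451770_s_at, read 12.31 and 12.06 with IRP2 against 10.83 and 10.96 in duodenum, 12.22 and 11.87 against 10.46 and 10.47 in liver, and 12.53 and 12.59 against 11.49 and 11.63 in spleen. Brain gave 12.22 and 11.11 against 10.84 and 10.47. Bone marrow gave 11.39 and 10.70 against 10.96 and 9.66, the 1 tissue where the reactions overlapped on this probe set. The mean ratio was 1.12 ± 0.17 (SE, n = 10 per reaction). Probe set 1425617_at had a mean of 1.19 ± 0.23, the highest of the gene, at a control level of 5.24. Only 3 of its 10 control arrays, but 9 of its 10 IRP2 arrays, reached their array median. Its brain pairs were 1.91 and 0.16. The third probe set, 1425618_at, had 0.08 at a control level of 4.33 and was too dim for the test.

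Taf10 is a subunit of the general transcription factor TFIID and of the histone acetyltransferase complex SAGA. Probe set 1448784_at read 9.87 and 10.59 with IRP2 against 8.35 and 8.87 in duodenum, 10.16 and 10.42 against 8.79 and 8.89 in liver, and 11.11 and 11.23 against 9.50 and 9.87 in spleen. Bone marrow gave 9.77 and 9.60 against 9.09 and 8.31, and brain 9.19 and 9.75 against 7.93 and 8.17. The arrays were apart in all 5 tissues. Among the 5 genes with a mean above 1 it varied least over the 10 pairs (SD 0.292), with ratios from 0.68 to 1.73 and a mean of 1.39 ± 0.14 (SE, n = 10 per reaction). Apart from the first bone marrow pair, no pair was below 1.26. Its dim probe set 1455625_at, at a control level of 5.47, had a mean of 0.24 ± 0.09 and lay below 0 in both bone marrow pairs (-0.34 and -0.46). Of its arrays, 3 of 10 controls and 8 of 10 with IRP2 reached the array median.

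Bap1 encodes a nuclear deubiquitinase that acts on histones. On probe set 1452039_a_at duodenum had pair ratios of 1.93 and 1.71, liver 1.05 and 0.47, spleen 1.68 and 0.83, bone marrow 0.07 and 0.16, and brain 1.20 and 0.27. Its IRP2 levels were 9.41 to 11.62 and its control levels 8.21 to 10.52. This was the widest range over tissues among the 10 genes, from 1.82 in duodenum to 0.12 in bone marrow, and the bone marrow reactions overlapped (9.95 and 9.67 against 9.87 and 9.51). The mean was 0.94 ± 0.12 (SE, n = 10 per reaction). Probe set 1426354_at gave the similar values 1.10, 0.51, 1.24, 0.25 and 0.81 for duodenum, liver, spleen, bone marrow and brain, with a mean of 0.78 ± 0.13. In liver, spleen and brain the first pair of both probe sets exceeded the second.

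Ap1m1 encodes the medium subunit of AP-1, a clathrin adaptor that sorts cargo between the Golgi and endosomes. On probe set 1459832_s_at duodenum had pair ratios of 1.41 and 1.52, liver 1.01 and 0.43, spleen 1.27 and 0.64, bone marrow 0.06 and 0.62, and brain 1.04 and 0.08. Its IRP2 levels were 9.68 to 12.41 and its control levels 8.83 to 11.40. The bone marrow reactions overlapped (10.80 and 10.22 against 10.74 and 9.60), and those of the other tissues did not. The mean was 0.81 ± 0.15 (SE, n = 10 per reaction), the lowest of the 10 genes. Its other probe set, 1416307_at, had 0.50 ± 0.13, with both pairs above 0 in every tissue and a highest pair of 1.08 in spleen.

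Aagab is a chaperone that helps to assemble the adaptors AP-1 and AP-2. On probe set 1438379_x_at duodenum had pair ratios of 0.93 and 1.15, liver 1.07 and 1.10, spleen 0.68 and 0.96, bone marrow 0.34 and 0.48, and brain 1.31 and 0.90. Its IRP2 levels were 6.77 to 8.32 and its control levels 5.88 to 7.18. No reactions overlapped, and the mean was 0.89 ± 0.15 (SE, n = 10 per reaction). Probe set 1424016_at gave 0.85 ± 0.12. The probe sets were close in duodenum, liver and brain, while they were 0.82 and 1.29 in spleen and 0.41 and -0.06 in bone marrow.

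Ubxn1 is a cofactor of p97, the ATPase that extracts ubiquitylated proteins from complexes and membranes. On its single probe set duodenum had pair ratios of 0.99 and 1.06, liver 0.55 and 0.64, spleen 1.09 and 0.99, bone marrow 0.31 and 0.99, and brain 1.19 and 0.95. Its IRP2 levels were 8.21 to 9.69 and its control levels 7.39 to 9.05. Reactions overlapped in no tissue, and the mean was 0.88 ± 0.11 (SE, n = 10 per reaction). Ubxn1 was the 1 gene of the 10 whose lowest tissue was not bone marrow: liver had 0.59 and bone marrow 0.65.

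**Figure D2:**
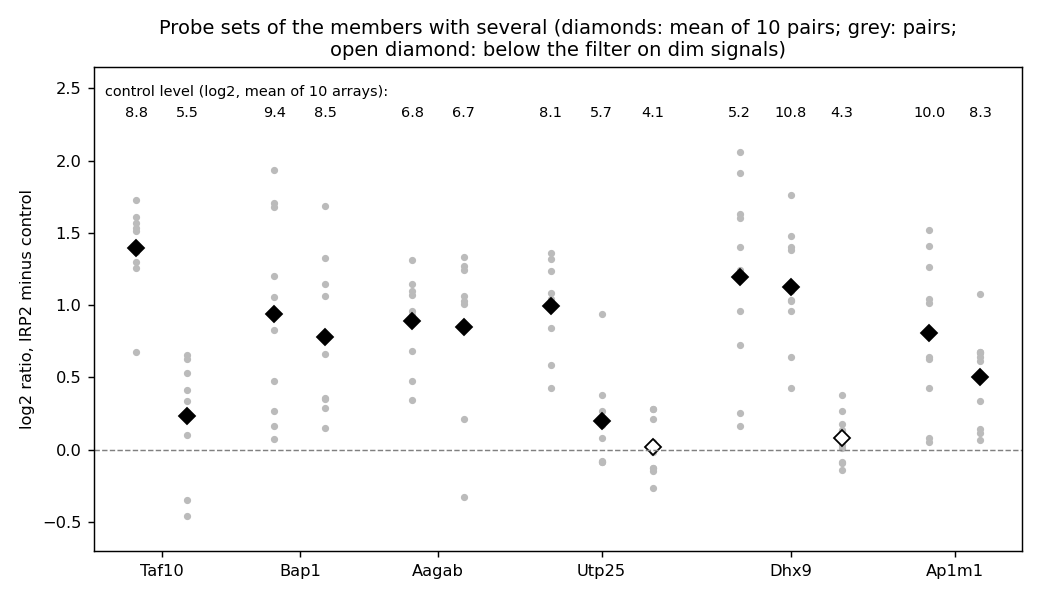
The vertical axis gives the log2 ratio of IRP2 to control for every probe set of the 6 genes that have several; diamonds are the mean of 10 pairs, grey points the pairs, and the numbers on top the mean control level. The bright probe sets of Dhx9 (1.12), Bap1 (0.94 and 0.78) and Ap1m1 (0.81 and 0.50) lie well above 0. So do those of Aagab (0.89 and 0.85), of middling level, and the dim Dhx9 probe set 1425617_at (1.19). The dim ones of Taf10, Utp25 and the dimmest of Dhx9 lie near 0.

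Of the 18 probe sets, 4 genes had 1 each (Nt5c, Hmces, Fam98b, Ubxn1) and 6 had several. For Bap1, Aagab and Ap1m1 all probe sets had a mean ratio of at least 0.50. Those with a mean below 0.25 were 1 of Taf10, 2 of Utp25 and 1 of Dhx9, all with control levels of 5.73 or less, but the dim Dhx9 probe set 1425617_at went against this order. The position of the probe sets on the transcripts was not analysed here.

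Both IRP2 arrays stood above both controls for all 10 genes in duodenum (14.4% of all probe sets did so), liver (13.9%) and spleen (15.6%), for 9 in brain (4.21%) and for 7 in bone marrow (14.5%). The exceptions were Dhx9, on its dim probe set 1425617_at, in brain and Dhx9, Bap1 and Ap1m1 in bone marrow. In all 5 tissues at once 7 of the 10 genes were apart, against 0.229% of all probe sets.

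The numbers of genes called varied with the treatment of replicas. A call means an adjusted p under 0.05 from limma over all probe sets tested. On the mean over tissues, all 10 genes were called higher, against 0.365% of all probe sets (1.07% with a block for replicate number). Leaving out 1 array brought this count to 8 or 9 in 18 of 20 fits, and it was 9 without the filter on dim signals, where Dhx9 on its dim probe set had an adjusted p of 0.0553 (limma). Within tissues the counts were 3 for duodenum (background 0.073%), 2 for liver (0.0332%), 2 for spleen (0.063%), 2 for brain (0.0597%) and 0 for bone marrow (0.00995%), where 523 of all probe sets were higher and 1439 lower at an unadjusted p under 0.05. Nt5c and Hmces were called in the 4 tissues other than bone marrow, and Bap1 also in duodenum. With the replicate block the counts were 9 for duodenum (0.282%), 6 for liver (0.206%), 7 for spleen (0.292%), 7 for brain (0.139%) and 3 for bone marrow (0.378%), and Nt5c, Fam98b and Taf10 were then called in all 5. These contrasts chose the genes, so the counts are descriptions. Leaving out any 1 of the 4 liver or 4 spleen arrays brought the count of that tissue to 0. In duodenum it was 0 without control replicate 1 or IRP2 replicate 2, and 1 without either of the others. In brain it was 0 without IRP2 or control replicate 1, and 1 in most other leave-outs: the brain count was below 2 in 18 of 20 fits, and the liver count in 10.

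Tissues differed in the size of the ratio, a difference that was not tested because the genes were chosen for being shared. Over the 10 genes duodenum had a median of 1.57, spleen 1.29, liver 1.27, brain 1.09 and bone marrow 0.50, against medians from -0.04 to 0.04 over all probe sets tested. Bone marrow was the lowest tissue for 9 of the 10 genes, and for 48 of the 97 other probe sets called higher on the mean over tissues. The textbook IRE mRNAs, on their brightest probe sets, had medians of 0.75 for duodenum, 1.43 for liver, 1.29 for spleen, 0.76 for bone marrow and 0.94 for brain. These are not always the probe sets with the highest ratio. On brightest probe sets the 10 genes had 1.54, 1.27, 1.24, 0.58 and 1.09 in the same order of tissues. In bone marrow the first pair had a median of 0.42 over the 10 genes and the second 0.67. Without control replicate 1, the array nearest to spleen, the bone marrow median was 0.89 (0.30 for Bap1 to 1.90 for Nt5c), Nt5c was called and all 10 were above 0. Without control replicate 2 it was 0.39, with 8 of 10 above 0. The part of that array in the low bone marrow ratios was not tested further.

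The control reaction gives the level of each mRNA among the RNA that came down without IRP2. This level is part of the ratio that chose the genes, but its differences between tissues were not used for the choice. Levels were set relative to the median of the probe sets tested on each array. Whether the tissues were normalized together is not stated, and subtracting a median would not remove every effect of separate normalization. A limma F test found different control levels between the 5 tissues for 8 of the 10 genes on the probe set with the highest ratio, and for 11 of the 16 probe sets tested, against 84.6% of all probe sets; the members' share is not above that background. In bulk RNA, fewer cells that make an mRNA and less of it per cell cannot be told apart.

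The range of the control level over tissues had a median of 1.33 for the 10 genes, against 1.52 for all probe sets tested. Among the 10, Ap1m1 had the widest range, from 2.37 above the array median in duodenum to 4.73 in spleen (F = 18.1, adjusted p = 3.91e-05, n = 2 arrays per tissue, limma). Bap1 ran from 1.76 in duodenum to 3.76 in brain (F = 20.5, adjusted p = 1.96e-05, limma), with 3.44 in spleen and 3.30 in bone marrow next to brain. Nt5c was high in duodenum (2.73) and spleen (2.70) and low in liver (1.51), brain (1.40) and bone marrow (1.12) (adjusted p = 8.55e-05, limma). Within each of these sets of tissues Nt5c differed by less than its bone marrow controls did from each other. Ubxn1 was highest in liver (2.46) and lowest in brain (0.98; adjusted p = 0.000178, limma), and Hmces was highest in spleen (1.41) and lowest in duodenum (0.23; adjusted p = 0.000414, limma). Taf10 and Utp25 both peaked in spleen, at 3.14 and 2.16 (adjusted p = 0.00201 and 0.00175, limma). Fam98b ran from 2.33 in bone marrow to 3.49 in brain (adjusted p = 0.0271, limma), but not after quantile normalization over all arrays (adjusted p = 0.224) or in 6 of 20 fits that left out 1 array. The probe sets of Aagab (adjusted p = 0.136 and 0.424) and the dim one of Dhx9 (adjusted p = 0.486) did not pass the limma test, while the bright Dhx9 probe set did (adjusted p = 0.0442), from 3.89 in liver to 5.01 in spleen.

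**Figure D3:**
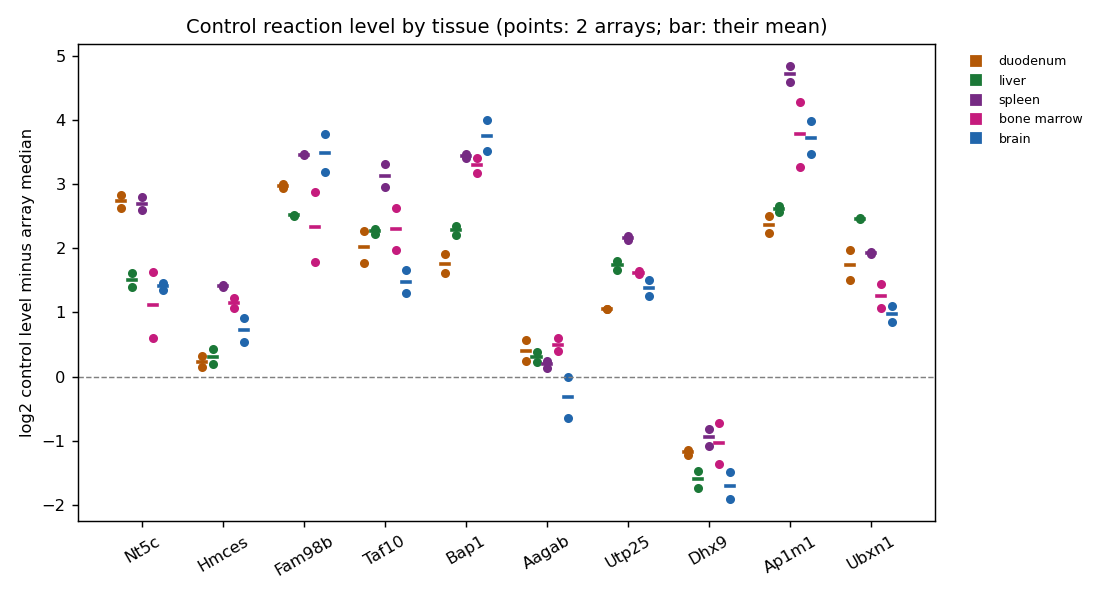
The vertical axis gives the log2 level in the control reaction minus the median of the array; points are the 2 control arrays of a tissue, bars their mean and colours the tissues. Ap1m1 spans 2.37 to 4.73 and Bap1 is lowest in duodenum. The 2 bone marrow controls are farther apart than those of any other tissue for Nt5c, Fam98b, Ap1m1, Taf10 and Dhx9 (on its dim probe set).

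On the probe sets with the highest mean ratio, the tissue with the highest ratio had the lowest control level for 5 of the 10 genes. It was duodenum for Hmces, Bap1 and Ap1m1, and brain for Aagab and Ubxn1. The ratio contains the control arrays, so these measures are not independent. For Utp25 spleen was highest in both. The pattern depended on the probe set. On the other probe sets of Bap1, Ap1m1 and Aagab, spleen had the highest ratio (1.24, 0.88 and 1.29). Its control level there was the highest for Ap1m1 (2.49) and Aagab (0.45), and 2.29 for Bap1, below brain (2.50). The bright Dhx9 probe set had its highest ratio (1.58) and its lowest control level (3.89) in liver. The share of all probe sets with this pattern was not computed.

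To see whether the signal extended to the molecular partners of the 10 genes, 9 lists of partners or family members were compared in the same fit. Of 163 genes listed, 149 had a probe set that was tested, 270 probe sets in all. On the mean over tissues 1 gene was called higher and 0 lower, which is 1 of 270 probe sets against 0.371% of all probe sets called in either direction. Within single tissues limma called 0 partners in either direction. At an unadjusted p under 0.05, 2 partner probe sets were higher (0.741%, against 1.93% of all probe sets) and 4 lower (1.48% against 0.939%) on the mean. In duodenum 2 were higher (0.741% against 1.05%) and 1 lower (0.37% against 0.212%), and liver, spleen and brain had 0. In bone marrow 28 were lower (10.4%, against 4.77% of all probe sets) and 0 higher (against 1.73%), and the difference between these shares was not tested. The exception was Dhx32, a helicase related to Dhx9, on probe set 1438013_x_at, at 0.83 ± 0.17 (SE, n = 10 per reaction; adjusted p = 0.0431, limma). Its duodenal level was 7.01 in the control and 9.05 with IRP2, a ratio of 2.04 ± 0.37 (adjusted p = 0.0713, or 0.00294 with the replicate block), and the ratio was 0.40 to 0.71 in the other tissues. The other Dhx32 probe set had a mean of 0.14. The call was lost in a fit without the filter on dim probe sets, separately on the mean without bone marrow, and in 17 of the 20 fits that left out 1 array.

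On the mean over tissues the remaining partners lay near 0. On brightest probe sets, the 149 genes had a median of -0.04 and ran from -0.35 for the helicase Ythdc2 to 0.36 for Ubxn2a, a p97 cofactor like Ubxn1, apart from Dhx32. The spread was wider in single tissues, with Ythdc2 at -1.31, the TFIID subunit Taf1 at -1.27 and Ogt at -1.06 in bone marrow and Ap1s3 at -0.85 in duodenum, none of them called. The limits that follow are of the mean over tissues. The 28 measured TFIID and SAGA subunits around Taf10 were within -0.25 (Tada1) and 0.18 (Supt20). The 10 of the BAP1 complex lay between -0.20 for Ogt, which adds GlcNAc to proteins, and 0.07 for Ube2o. For the 12 AP-1 and AP-2 subunits the limits were -0.24 for Ap1s3 and 0.10 for Ap1m2, the epithelial counterpart of Ap1m1. The 39 processome proteins around Utp25 ran from -0.23 (Nol11) to 0.13 (Nop14), and the 5 of the tRNA ligase complex around Fam98b from -0.25 (Rtraf) to 0.05 (Fam98c). The 7 nucleotidases related to Nt5c lay between -0.20 (Nt5dc1) and 0.06 (Nt5e), and the 17 base excision repair genes around Hmces between -0.13 (Neil3) and 0.07 (Lig3). With the replicate block, which called 0.726% of all probe sets in bone marrow and 1.21% on the mean in either direction, 4 partners were lower in bone marrow on dimmer probe sets: Polb at -1.60, Nol11 at -1.12, Fen1 at -1.05 and Parp1 at -0.79 (limma, adjusted p = 0.0301, 0.0439, 0.0439 and 0.0463). Their brightest probe sets had -0.29, -0.31, -0.00 and -0.09. Without bone marrow control replicate 2, 24 partners were called lower there on 25 of 270 probe sets (9.26%), while 5.57% of all probe sets were.

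**Figure D4:**
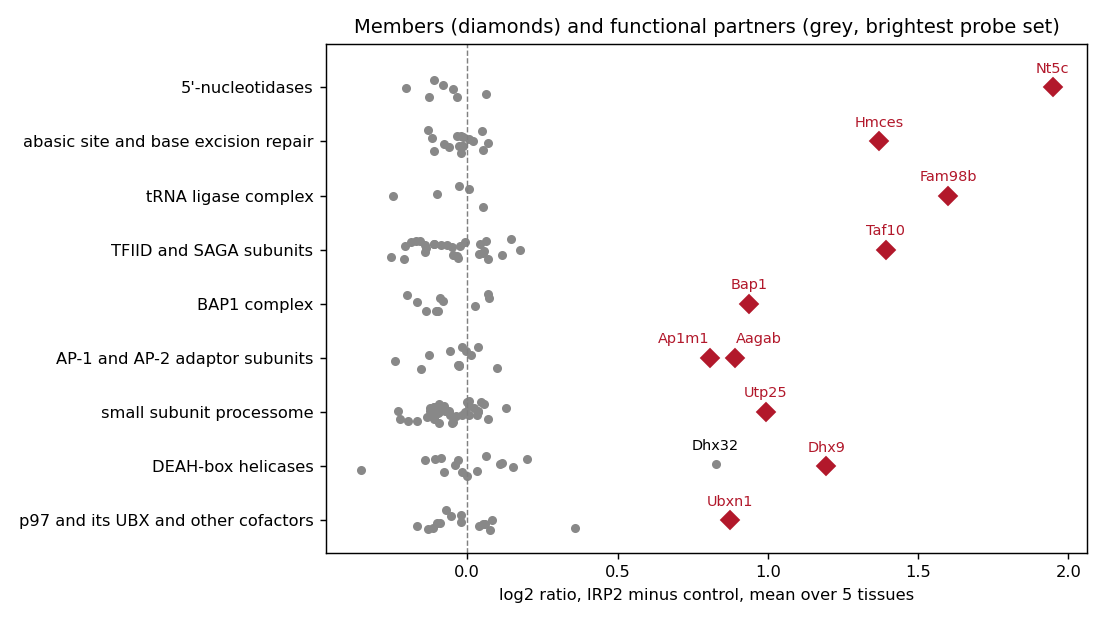
The horizontal axis gives the log2 ratio of IRP2 to control averaged over 5 tissues; red diamonds are the 10 genes on the probe set with the highest ratio and grey points are partner genes on their brightest probe set. Apart from Dhx32 at 0.83, partners lie between -0.35 and 0.36, while the 10 genes lie between 0.81 and 1.95, where their choice placed them.

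Genes outside the 10 with the most similar values were found by Euclidean distance, over the 10 pairs, from the median profile of the 10 genes. Chmp2b, a subunit of the ESCRT-III membrane remodelling complex, was nearest (distance 0.47, mean ratio 1.18), followed by Pdcl3 (0.74, 1.14), Gstt3 (0.80, 1.07), Sgcb (1.05, 1.06) and Pfn2 (1.09, 0.94). The members themselves lay at distances from 0.95 (Utp25 and Taf10) to 2.54 (Nt5c). The pairs of a gene share arrays with those of every other gene, so this is a description of level and not of independent agreement.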

How the data were processed

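The authors deposited 1 log2 value per probe set and array. They computed intensities with RMA in Bioconductor, or with MAS5 in GCOS and quantile normalization, per the submitters' processing notes and the series' design text, which do not say which gave the deposited table; versions and build are not given in the sources used here. Array medians lie at 5.38 to 5.55 (spleen, bone marrow, brain replica 2) or 5.65 to 5.71 (the others). Contrasts of IRP2 with control were therefore taken within tissues. Control levels were compared between tissues after each array's median was subtracted. Whether a single normalization covered all arrays is not stated, and this bears on the comparison between tissues. The model, in limma 3.58.1 (R 4.3.3), had a mean per tissue and reaction over all 20 arrays (10 residual degrees of freedom, prior 5.34) and Benjamini-Hochberg adjustment over 30153 probe sets. Of 45101 probe sets, 64 Affymetrix controls were left out; 34945 had 1 gene symbol, 932 several and 9160 none. A second fit had replicate number within tissue as a block (5 residual degrees of freedom). Arrays of one number deviated together from their group means (correlations 0.251 to 0.923, every tissue above 0.1), so the numbers were taken to pair them; the labels do not state this. Arrays give no read depth; their number limits the precision. The fits were tested on simulated data. The members and the lists of partners were chosen with earlier results of these data known. Named are all members on every probe set, each partner called in a comparison or, in a list with none, its highest and lowest, the textbook IRE mRNAs as a reference, and the 5 genes nearest to the members' profile; partners called only with the block are named after their values were seen.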

Additional observations from a re-analysis of the deposited data

Results flagged for a closer look

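On 3 probe sets of the members, both pairs of some tissue were above 0 and both pairs of another below 0; the difference between tissues was not tested. All 3 are the dim probe sets of their gene. Taf10 on 1455625_at had a mean ratio of -0.40 in bone marrow and 0.53 in duodenum. Dhx9 on 1425618_at had -0.11 in spleen and 0.33 in bone marrow, and Utp25 on 1458995_at had -0.14 in liver and 0.04 in brain; these 2 did not pass the filter on dim signals.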

How the results depend on the processing

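Every member kept a mean ratio above 0 under every alternative run, which the choice of the genes on these arrays made likely. The replicate block, the intensity trend and a fit without the filter leave the ratio itself unchanged. The median over the 10 genes was 1.09 and ran from 0.96 to 1.18 when single arrays were left out. With the replicate block the members called were 9 for duodenum, 6 for liver, 7 for spleen, 7 for brain and 3 for bone marrow, with 1 partner higher in duodenum and 4 lower in bone marrow; all 10 members stayed called on the mean. Quantile normalization over all arrays gave 4 members each in duodenum, spleen and brain, 3 in liver and 2 in bone marrow. In all, that fit called 27 probe sets higher in duodenum, 13 in liver, 23 in spleen, 24 in brain and 14 in bone marrow. It also called 1 partner higher in duodenum. Partners higher on the mean were 0 without the filter and 0 on the mean without bone marrow. Leaving out each of the 20 arrays, the members called ran from 0 to 4 (duodenum), 0 to 2 (liver and brain), 0 to 3 (spleen), 0 to 1 (bone marrow) and 8 to 10 (mean), where Dhx9 on its dim probe set lost its call in 15 of the 20 fits (and without the filter, adjusted p = 0.0553, limma) and Ap1m1 in 11. Members whose control level differed between tissues ran from 7 to 9. Partners higher ran from 0 to 1 in duodenum, in bone marrow and on the mean, and partners lower from 0 to 24 in bone marrow, the highest without control replicate 2, where 5.57% of all probe sets and 9.26% of partner probe sets were lower. The cause of these changes was not tested. The block raised the probe sets called higher on the mean from 110 to 322, and within tissues from 22 to 85 (duodenum), 10 to 62 (liver), 19 to 88 (spleen), 18 to 42 (brain) and 3 to 114 (bone marrow, 0 without the filter and 14 with quantile normalization).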
